A study of Mus musculus with 10 samples.

Results

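The primary (azurophil) and secondary (specific and gelatinase) granule genes of neutrophils were followed in leukemia cells in which a microRNA, miR-139, could be switched on. The 10 genes were taken by their symbols from the 52550 genes of the deposited read counts: Mpo, Elane, Prtn3 and Ctsg for the azurophil granules, and Ltf, Camp, Ngp, Lcn2, Mmp8 and Mmp9 for the specific and gelatinase granules. None of them fell under the limit of 10 counts over the 10 libraries that would have made it not measured, although Mmp9 had 17 counts and Mmp8 had 81.

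The cells were bone marrow hematopoietic stem and progenitor cells (HSPCs) of C57BL/6 mice, transformed with a retrovirus that carries the fusion oncogene MLL-AF9. The labels of all libraries name the repressor tetR-KRAB in their protocol, and the cells were grown with SCF, GM-CSF and the interleukins IL-3 and IL-6. In MLL-AF9-i139 cells a lentiviral construct expresses miR-139 under the control of doxycycline (DOX), and 3 picked clones were sequenced once without DOX and once with DOX at 5 µg/mL, for 48 h in clones 1 and 2 and for 72 h in clone 3. In the control, MLL-AF9-ieGFP, DOX induces eGFP, and 1 clone gave an untreated and a treated library at each of 48 h and 72 h. The sample labels give no time for the untreated MLL-AF9-i139 cultures and no DOX dose for MLL-AF9-ieGFP. The number of clones limits the comparison of constructs: MLL-AF9-ieGFP is 1 clone, so its construct and its clone cannot be told apart.

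Granules of the neutrophil lineage are filled in the order in which they form. Azurophil granules appear in promyelocytes and hold myeloperoxidase and the serine proteases, specific granules follow in myelocytes and metamyelocytes with lactoferrin and antimicrobial peptides, and gelatinase granules come last. The transcription factors PU.1 and the C/EBP family drive these genes, with C/EBPε known for the specific granule genes.

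Promoter sequences are shown for the letters near the start sites that such factors can bind. The windows of each class were few, and a difference between the 2 classes of granule gene was not tested. Windows of 250 bases before and 50 after the start came from RefSeq (GRCm38.p6) and were found for 9 of the 10 genes, all but Mmp9. They were searched on both strands for TTNNGNAA, a core bound by C/EBP factors, and for GAGGAA, a core bound by PU.1. The C/EBP letters were in 0 of 4 azurophil windows and in 4 of 5 specific and gelatinase windows (Ltf, Ngp, Lcn2 and Mmp8, not Camp), against 40.7% of all 32851 windows. The PU.1 letters were in 4 of 4 azurophil windows and in 3 of 5 of the others, against 28.3% of all windows, and no C/EBP match shared bases with a PU.1 match. The RUNX letters TGTGGT were in 2 of the 9 windows, of Ctsg and Ltf, against 16.8% of all windows. The MYB letters AACNG were in all 9 windows, which says little beside the 80.3% of all windows that hold them. The bases upstream of the start that lie outside annotated exons are printed 5′ to 3′ on the strand of the gene for the 4 azurophil genes and, as specific granule genes with C/EBP matches there, for Ngp and Ltf. Capitals mark matches to the C/EBP or PU.1 letters, and a match on the opposite strand reads as its reverse complement.
Mpo (chr11:87793534-87793580, plus strand): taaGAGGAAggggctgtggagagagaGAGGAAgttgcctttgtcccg
Elane (chr10:79886062-79886246, plus strand): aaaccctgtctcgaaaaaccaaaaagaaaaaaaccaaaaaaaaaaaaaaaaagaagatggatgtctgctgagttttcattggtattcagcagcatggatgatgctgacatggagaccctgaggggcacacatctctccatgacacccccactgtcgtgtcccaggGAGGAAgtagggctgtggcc
Prtn3 (chr10:79879417-79879613, plus strand): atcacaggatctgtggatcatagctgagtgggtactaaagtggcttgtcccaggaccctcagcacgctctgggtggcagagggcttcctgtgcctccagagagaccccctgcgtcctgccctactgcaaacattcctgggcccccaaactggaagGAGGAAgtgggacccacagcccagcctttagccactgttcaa
Ctsg (chr14:56102575-56102824, minus strand): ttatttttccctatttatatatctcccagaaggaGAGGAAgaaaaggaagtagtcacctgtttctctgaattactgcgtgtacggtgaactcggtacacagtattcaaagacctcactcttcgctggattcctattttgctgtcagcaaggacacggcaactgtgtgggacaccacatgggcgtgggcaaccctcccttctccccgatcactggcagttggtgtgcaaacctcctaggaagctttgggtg
Ngp (chr9:110419558-110419746, plus strand): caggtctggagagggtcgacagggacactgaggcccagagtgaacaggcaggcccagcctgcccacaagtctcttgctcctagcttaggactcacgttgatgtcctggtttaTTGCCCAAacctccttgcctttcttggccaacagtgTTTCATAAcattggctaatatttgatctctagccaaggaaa
Ltf (chr9:111019042-111019270, plus strand): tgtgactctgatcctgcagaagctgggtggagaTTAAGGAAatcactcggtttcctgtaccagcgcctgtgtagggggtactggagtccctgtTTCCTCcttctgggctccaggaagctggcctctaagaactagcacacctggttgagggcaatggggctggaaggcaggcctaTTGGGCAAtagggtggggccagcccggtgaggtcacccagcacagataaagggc

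In Mpo, Elane, Prtn3 and Ctsg the capitals are PU.1 matches. The Ngp stretch holds 2 C/EBP matches and no PU.1 match, and the third C/EBP match of its window lies downstream of the stretch. Ltf holds 2 C/EBP matches with 1 PU.1 match between them. The Prtn3 stretch lies in an intron of the longer GENCODE gene model, since RefSeq starts that gene further downstream. These matches are letters and were not tested as binding sites.

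Elane and Prtn3 are the one close pair among these genes. Prtn3 (chr10:79874476-79883174, plus strand) and Elane (chr10:79886247-79888215, plus strand) are 3072 bases apart on GRCm38. Mpo lies at chr11:87793581-87804413 on the plus strand and Ctsg at chr14:56099881-56102574 on the minus strand. Camp, Ngp and Ltf lie along chromosome 9, with 570129 bases between Camp and Ngp and 596258 between Ngp and Ltf. An antisense gene, Gm11505, lies inside Mpo and covers 30.8% of its exon bases, and it was listed at 0 counts in every library. Plppr3 overlaps 9.18% of the Prtn3 exon bases on the opposite strand and had 21483 counts in all. Whether the counting used strand is not given in the sources used here, so reads in these stretches may be missing from Mpo and Prtn3 or shared with their partners. The other 8 genes overlap no annotated gene.

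Library depth ranged from 35133308 to 47089725 counts, and the 10 most abundant genes took from 12.6% to 16.9% of a library. No pair of libraries of 1 condition agreed within sampling noise, with a chi-square over its degrees of freedom of 13.5 to 112. Levels are given as CPM (counts scaled to a common library total), adjusted by the TMM method of edgeR, and a count of 3 equals from 0.0615 to 0.087 CPM. The progenitor receptor gene Kit was at 131 to 172 CPM in every library, whereas Cd34, with 25.7% of its exon bases inside another gene, had 37 counts in all 10 libraries. Differences with DOX were tested over all genes with edgeR's quasi-likelihood test and Benjamini-Hochberg adjustment, at an adjusted p under 0.05, first without and then with the clone as a block, because libraries of 1 clone with and without DOX are the same line. In bulk RNA, fewer cells of a type and less RNA per cell cannot be told apart.

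The cells expressed the azurophil genes at high levels and the later genes far less. To compare genes, CPM were divided by exon length in kb. The median over the 10 libraries was 1286 CPM per kb for Elane (neutrophil elastase), 1029 for Ctsg (cathepsin G), 250 for Prtn3 (proteinase 3, which like the former is a serine protease) and 197 for Mpo (myeloperoxidase). Of the other class, Ngp (neutrophilic granule protein) was at 74.3 CPM per kb, Camp (cathelicidin antimicrobial peptide) at 8.86, Lcn2 (lipocalin 2, which binds siderophores) at 4.26 and Ltf (lactoferrin) at 1.49. The collagenase gene Mmp8 was at 0.0509 CPM per kb and the gelatinase gene Mmp9 at 0.0126.

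The order Elane, Ctsg, Prtn3, Mpo, Ngp, Camp, Lcn2, Ltf, Mmp8, Mmp9 held in each untreated library and in both MLL-AF9-ieGFP libraries with DOX. It changed in the 3 MLL-AF9-i139 libraries with DOX. There Mpo stood above Prtn3 in all 3 clones, Ctsg above Elane in clones 1 and 2, Lcn2 above Camp in clone 1, and Ngp above Prtn3 in clone 2. Neighbours in the order overlapped in range over the libraries in 6 of 9 pairs, and did not for Ctsg and Prtn3, Ngp and Camp, and Ltf and Mmp8. Elane ran from 927 to 2713 CPM per kb and Ctsg from 705 to 1574, while Prtn3 ran from 143 to 336 and Mpo from 121 to 487. The place of Mpo under Prtn3 rests on the exon length used. With all counts of a gene divided by only its exon length outside the overlapping genes, the medians were 284 for Mpo and 276 for Prtn3. This takes no read to have been counted in the overlapped bases, which is not known. The order of Lcn2 and Camp rests on the length too. Per kb of the whole gene, introns included, Lcn2 was at 3.12 and Camp at 2.53 in untreated MLL-AF9-ieGFP at 48 h. At 72 h they were at 3.39 and 3.94, and Lcn2 was below Camp in the untreated MLL-AF9-i139 clones.

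**Figure D1:**
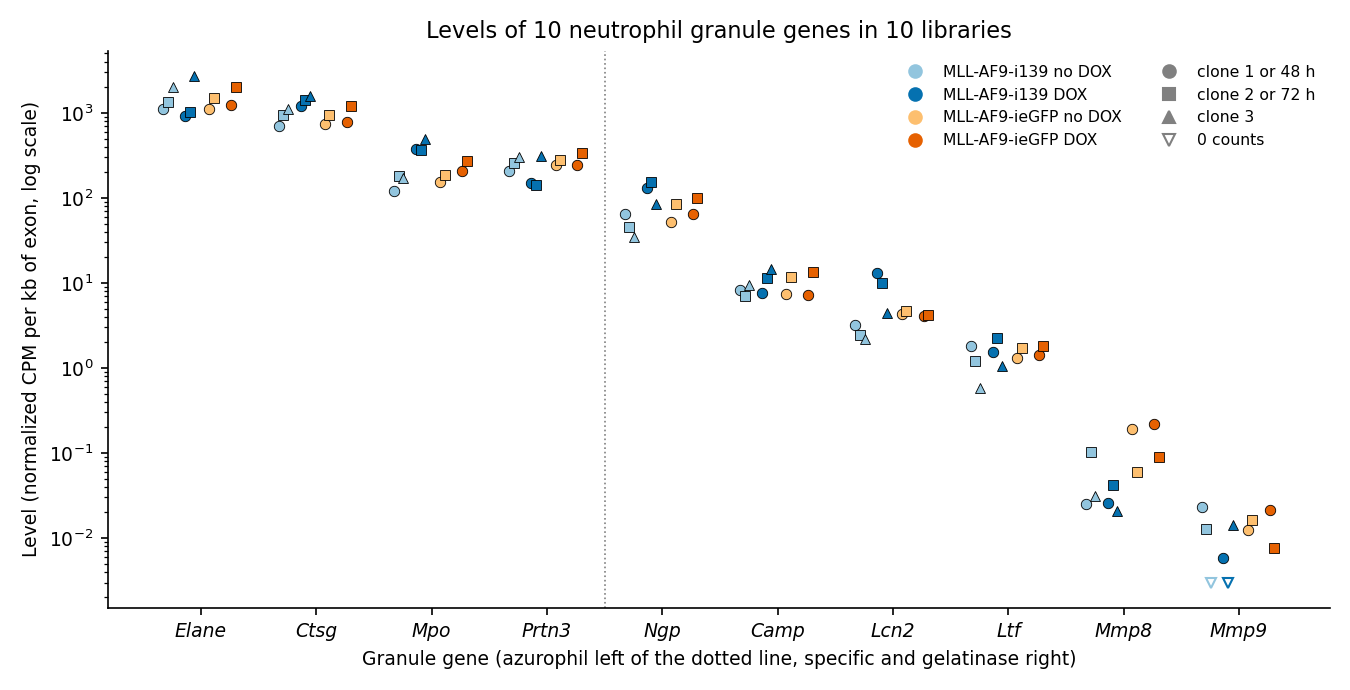
Level of each granule gene in each library as normalized CPM per kb of exon, on a log scale; colours give the group, symbols the clone (MLL-AF9-i139) or culture time (MLL-AF9-ieGFP), and open triangles libraries with 0 counts. The 4 azurophil genes lie above 100 CPM per kb in every library, and Mmp8 and Mmp9 lie below 0.3.

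Mpo showed the clearest difference with DOX among the azurophil genes. In MLL-AF9-i139 it was at 414, 615 and 580 CPM in untreated clones 1, 2 and 3 and at 1306, 1244 and 1669 CPM under DOX. Every library with DOX was above every one without, and the clones differed by 3.15-, 2.02- and 2.88-fold. The log2 fold change was 1.40 ± 0.178 (SE, n = 3 clones), with an adjusted p of 0.0579 in edgeR without the block and 0.00955 with it. In MLL-AF9-ieGFP, Mpo was at 524 and 642 CPM untreated and at 705 and 927 CPM under DOX, at 48 h and 72 h. These groups did not overlap either, but with 2 libraries each this says less than with 3. The share of all genes that separate in this way in MLL-AF9-ieGFP was not counted. The log2 fold change was 0.49 ± 0.211, with an unadjusted p of 0.0422 and an adjusted p of 1 (edgeR, n = 2 cultures). The DOX effect was larger in MLL-AF9-i139 by 0.90 ± 0.273 on the log2 scale, with an adjusted p for that difference of 0.527 without the block and 0.067 with it.

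Ctsg differed in the same direction, by less. It was at 728, 964 and 1140 CPM in untreated clones 1, 2 and 3 and at 1254, 1478 and 1626 CPM under DOX. The groups did not overlap, and the 3 clones differed by 1.43- to 1.72-fold. The log2 fold change was 0.63 ± 0.176, with an adjusted p of 0.125 in edgeR and of 0.0179 with the clone block, a call that was lost with the block when clone 1 was left out (adjusted p 0.0564). In MLL-AF9-ieGFP it was at 770 and 986 CPM untreated and at 805 and 1255 CPM under DOX, in overlapping groups with a log2 fold change of 0.23 ± 0.239. The difference between the constructs was 0.39 ± 0.309, with an adjusted p of 0.695, or 0.119 with the block.

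Elane and Prtn3, the neighbouring protease genes, did not follow Mpo and Ctsg. Elane was at 1090, 1315 and 2004 CPM in untreated clones 1, 2 and 3 and at 913, 1013 and 2669 CPM under DOX. It was lower with DOX in clones 1 and 2, at 0.838 and 0.77 of the untreated level, and higher in clone 3, at 1.33. Its log2 fold change was 0.07 ± 0.411 without the block and -0.06 ± 0.147 with it, so the sign turned, and neither passed the test (adjusted p 0.948 and 0.816).

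Prtn3 was at 362, 445 and 519 CPM untreated and at 256, 248 and 536 CPM under DOX. The ratios were 0.708, 0.557 and 1.03 in clones 1, 2 and 3. The log2 fold change was -0.34 ± 0.293, with an adjusted p of 0.545, or 0.115 with the block. The value rested on single clones. Without clone 2 it was -0.15, or -0.22 with the block. Without clone 3, the one treated for 72 h, Prtn3 fell by 0.66 ± 0.119 on the log2 scale, with an adjusted p of 0.00732 in edgeR without the block, and its DOX effect was below that of MLL-AF9-ieGFP by 0.81 ± 0.212, with an adjusted p of 0.0354. For Elane without clone 3, the log2 fold change was -0.30 ± 0.125 with an adjusted p of 0.132 in edgeR, and -0.30 ± 0.068 with an adjusted p of 0.000243 with the block, in a fit that leaves 1 residual degree of freedom. Many genes passed in edgeR without clone 3: 3981 without the block, 7974 with it and 2011 for the difference between constructs. These calls of Prtn3 and Elane are therefore not particular to them. Clone and time of treatment cannot be told apart in these libraries.

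In MLL-AF9-ieGFP, Elane was at 1088 and 1493 CPM untreated and at 1215 and 1982 CPM under DOX at 48 h and 72 h, and Prtn3 at 419 and 481 CPM and at 422 and 581 CPM. Both were higher with DOX at each time, by 1.12- and 1.33-fold for Elane and by 1.01- and 1.21-fold for Prtn3, and neither passed the test. Both were also higher at 72 h than at 48 h. The log2 difference between the times was 0.46 without DOX and 0.71 with DOX for Elane, and 0.20 and 0.46 for Prtn3. The pair was not alone in this. In the same order the differences were 0.29 and 0.40 for Mpo, 0.36 and 0.64 for Ctsg, and 0.68 and 0.63 for Ngp. They were 0.64 and 0.91 for Camp, 0.38 and 0.33 for Ltf, and 0.12 and 0.05 for Lcn2. On few counts, they were -1.4 and -1.1 for Mmp8 and 0.21 and -0.73 for Mmp9.

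Among the specific granule genes, Ngp and Lcn2 differed most. Ngp was at 79.0, 56.2 and 42.4 CPM in untreated clones 1, 2 and 3 and at 158, 186 and 102 CPM under DOX. The groups did not overlap, and the clones differed by 2.00-, 3.30- and 2.42-fold. The log2 fold change was 1.34 ± 0.271, with an adjusted p of 0.0955 in edgeR and 0.0109 with the block. In MLL-AF9-ieGFP it was at 64.5 and 104 CPM untreated and at 79.2 and 123 CPM under DOX, with a log2 fold change of 0.26 ± 0.345. The difference between the constructs was 1.06 ± 0.446 on the log2 scale, with an adjusted p of 0.532, or 0.0585 with the block.

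Lcn2 was at 8.44, 6.36 and 5.78 CPM in untreated clones 1, 2 and 3 and at 34.0, 26.4 and 11.5 CPM under DOX. All 3 clones were higher with DOX, clones 1 and 2 by 4.01- and 4.13-fold and clone 3 by 1.98-fold. The log2 fold change was 1.82 ± 0.368, with an adjusted p of 0.0955 in edgeR and 0.0173 with the block. In MLL-AF9-ieGFP it was at 11.3 and 12.3 CPM untreated and at 10.7 and 11.0 CPM under DOX, lower in both cultures, with a log2 fold change of -0.12 ± 0.382 that did not pass the test. The DOX effects of the 2 constructs differed by 1.92 ± 0.497 on the log2 scale, with an adjusted p of 0.527 in edgeR and 0.0436 with the block. The untreated MLL-AF9-i139 clones lay below both untreated MLL-AF9-ieGFP libraries, by 0.78 ± 0.347 on the log2 scale (unadjusted p 0.0466, adjusted p 1, edgeR). The Lcn2 level of clone 3 with DOX was thus within 1 CPM of the MLL-AF9-ieGFP libraries, and those of clones 1 and 2 were above them.

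Ltf and Camp did not pass the test in either fit. Ltf was at 6.19, 4.15 and 2.00 CPM in untreated clones 1, 2 and 3 and at 5.39, 7.83 and 3.66 CPM under DOX. Camp was at 6.31, 5.31 and 7.12 CPM untreated and at 5.70, 8.70 and 11.0 CPM under DOX. For both, clone 1 was lower with DOX and clones 2 and 3 were higher. The log2 fold changes were 0.46 ± 0.422 for Ltf and 0.45 ± 0.258 for Camp, with adjusted p of 0.571 and 0.362 in edgeR and 0.196 and 0.197 with the block. With 1 clone left out they ran from 0.16 (without clone 2) to 0.90 (without clone 1) for Ltf and from 0.32 to 0.66 for Camp, and did not pass the test. In MLL-AF9-ieGFP, Ltf ran from 4.54 to 6.20 CPM and Camp from 5.41 to 10.2 CPM over the 4 libraries. Camp rested on 212 to 432 counts a library and Ltf on 79 to 308.

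The metalloproteinase genes were near the limit of detection. Mmp8 had 3, 11 and 3 counts in untreated clones 1, 2 and 3 and 3, 4 and 2 counts under DOX. In MLL-AF9-ieGFP the untreated cultures of 48 h and 72 h had 21 and 5 counts, and those under DOX 21 and 8. Its log2 fold change in MLL-AF9-i139 was -0.82 ± 0.707, with an adjusted p of 0.547 (edgeR). Mmp9 had 0 to 4 counts a library and 9 counts in the 6 MLL-AF9-i139 libraries, too few for a test there. No difference in either gene was detectable at this depth.

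**Figure D2:**
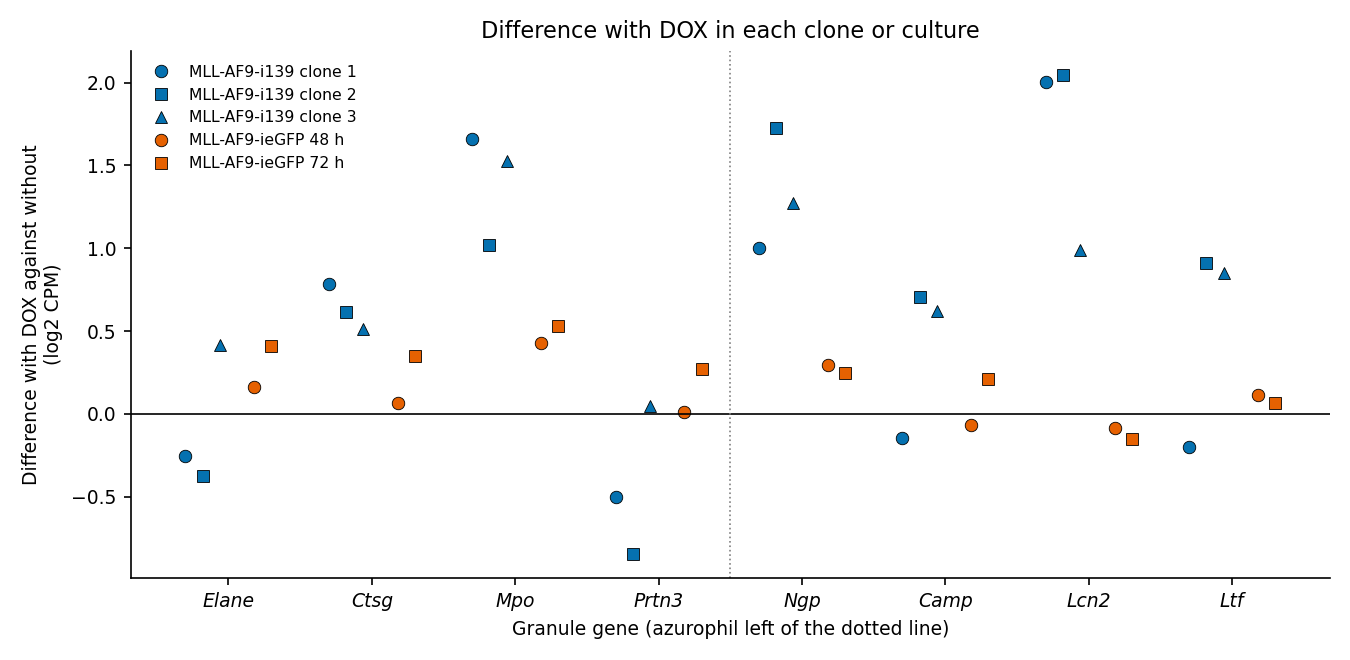
Difference in log2 CPM (prior count of 2) with DOX against without, for each MLL-AF9-i139 clone and each MLL-AF9-ieGFP culture, in 8 granule genes; Mmp8 and Mmp9 are left out for their few counts. Mpo, Ctsg, Ngp and Lcn2 are above 0 in all 3 clones, while Elane and Prtn3 are below 0 in clones 1 and 2 and above it in clone 3.

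Over the granule genes as a group, 0 of the 9 tested in MLL-AF9-i139 passed the test without the block, where 0.0624% of all 19223 genes tested passed it. With the block 4 of 9 passed, all of them higher with DOX (Mpo, Ctsg, Ngp and Lcn2), where 12.4% of all genes passed, 1356 higher and 1025 lower. DESeq2, fitted without the block, called the same 4 genes among 1556 calls over all genes. The libraries with and without DOX did not overlap for 4 of 9 granule genes, against 24.9% of all genes tested. The median log2 fold change without the block was 0.35 over the 4 azurophil genes and 0.46 over the 5 tested specific and gelatinase genes, beside 0.01 over all genes tested. In MLL-AF9-ieGFP 0 of 10 passed, where 0% of 20269 genes passed (259 had an unadjusted p under 0.05, and DESeq2 called 1). The DOX effect differed between the constructs for 0 of 10 granule genes without the block and for Lcn2 alone with it, where 0.00493% and 0.187% of all genes passed. Untreated MLL-AF9-i139 and MLL-AF9-ieGFP differed in 0 of 10, where 0.0444% of all genes passed. These comparisons share libraries and are not independent of each other.

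The azurophil genes were then set against the later genes in each library. The log2 ratio of their summed CPM per kb was 4.78, 5.58 and 6.27 in untreated clones 1, 2 and 3 and 4.14, 4.08 and 5.61 under DOX. In the same libraries the azurophil sum went from 2143, 2707 and 3609 to 2671, 2967 and 5083 CPM per kb, and the sum of the later genes from 78.1, 56.7 and 46.9 to 152, 176 and 104 CPM per kb. Both sums were higher with DOX in every clone, and the ratio was lower in every clone. The mean log2 ratio was 5.54 ± 0.744 (SD, n = 3) without DOX and 4.61 ± 0.87 (SD, n = 3) with DOX, ranges that overlapped. The untreated MLL-AF9-ieGFP cultures had log2 ratios of 5.09 at 48 h and 4.84 at 72 h, and those under DOX 4.99 and 5.00. Both sums were higher with DOX in these control cultures too. At 48 h and 72 h the azurophil sum went from 2245 and 2937 to 2464 and 3835 CPM per kb. The sum of the later genes went from 66.1 and 103 to 77.7 and 120 CPM per kb. The later sum was mostly Ngp, which made up 74.0% to 86.4% of it, so the ratio is close to the azurophil sum over Ngp. Taken as a mean of log2 levels, in which Mmp8 and Mmp9 count as much as Ngp, the ratio with DOX was lower in clones 2 and 3 but higher in clone 1 (8.24 without and 8.39 with DOX).

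The make-up of the azurophil sum differed too. Mpo made up 5.65%, 6.64% and 4.69% of it in untreated clones 1, 2 and 3 and 14.3%, 12.3% and 9.59% under DOX. Elane went from 51.7% and 49.4% to 34.7% and 34.7% in clones 1 and 2, and from 56.4% to 53.4% in clone 3. Ctsg went from 32.9% and 34.5% to 45.5% and 48.2% in clones 1 and 2 and from 30.6% to 31.0% in clone 3. The share of Prtn3 was 8.31% to 9.76% without DOX and 4.82% to 6.09% with DOX. In MLL-AF9-ieGFP the Elane share was between 49.2% and 52.5%. The Mpo share there was also higher with DOX at both times, 8.36% against 6.81% at 48 h and 7.06% against 6.38% at 72 h.

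**Figure D3:**
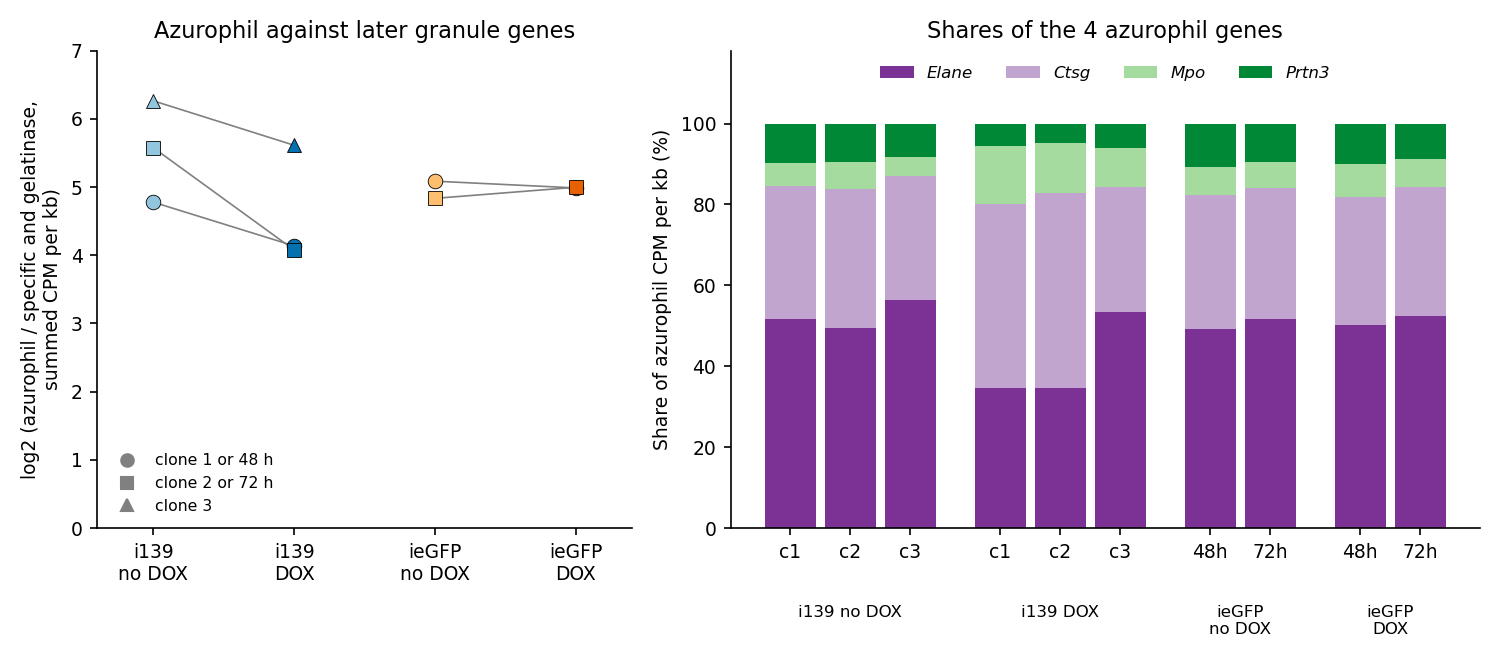
Left, log2 ratio of the summed CPM per kb of the 4 azurophil genes to that of the 6 specific and gelatinase genes in each library, with lines joining the libraries of 1 clone (i139) or 1 culture time (ieGFP); right, share of each azurophil gene in their sum (c1 to c3 are clones 1 to 3). The ratio is lower with DOX in all 3 MLL-AF9-i139 clones, and the Mpo share is higher in each of them.

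Across the 10 libraries some azurophil genes went together more than others. As a description over libraries that share clones and controls, log2 CPM of Mpo went with that of Ctsg (Pearson r 0.891, n = 10 libraries) and that of Elane with that of Prtn3 (r 0.832), while r was 0.454 between Elane and Ctsg, 0.244 between Mpo and Elane, -0.06 between Prtn3 and Ctsg and -0.224 between Mpo and Prtn3. Ngp went with Lcn2 (r 0.893), and Prtn3 ran against Lcn2 (r -0.755, by rank -0.382). The highest r to the mean of the 4 azurophil genes, among 10740 other genes with an average log2 CPM of at least 1, was that of Pck2 at 0.969, followed by Hyi (0.957), Gm28661 (0.943), Impdh1 (0.928) and 4930438A08Rik (0.918). Gm28661 is annotated as an unprocessed pseudogene, so its reads may belong to another copy. Pck2, a mitochondrial enzyme that makes phosphoenolpyruvate, ran from 15.9 to 57.1 CPM. For the mean of the 6 later genes the highest r were those of Slc2a1 (0.927), a glucose transporter, Gm10524 (0.911), Zfp27 (0.91), Tjp3 (0.91) and Ceacam10 (0.905). Mmp8 and Mmp9 entered that mean with the few counts given above.

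Other genes of the granules were read from lists. Of 10 other azurophil genes and genes for the maturation and storage of their proteases, 0 passed without the block (0.0624% of all genes did), and 4 were higher and 3 lower with it (12.4% of all genes passed). Lyz2 (lysozyme) was at 6.15, 5.84 and 9.51 CPM in untreated clones 1, 2 and 3 and at 34.6, 29.1 and 13.9 CPM under DOX, with a log2 fold change of 1.87 ± 0.347 (edgeR adjusted p 0.0891, or 0.0301 with the block). Ctsc, whose product cathepsin C activates the granule serine proteases, was at 37.3, 39.8 and 40.8 CPM untreated and at 20.7, 18.1 and 32.2 CPM under DOX (log2 fold change -0.72 ± 0.205, adjusted p 0.128, or 0.0291 with the block). Every library with DOX was thus above every one without for Lyz2 and below for Ctsc. Ms4a3, a membrane protein gene of granulocyte and monocyte progenitors, fell with the block by 0.96 ± 0.172 on the log2 scale (adjusted p 0.027, and 0.131 without the block).

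Serpinb1a, an inhibitor of elastase, cathepsin G and proteinase 3 that is counted in the list above too, was at 65.5, 72.6 and 72.3 CPM untreated and at 41.2, 30.0 and 53.4 CPM under DOX. Its log2 fold change was -0.74 ± 0.191, with an adjusted p of 0.118, or 0.0294 with the block. It was the only one of the 6 tested genes on the list of 10 protease inhibitors to pass, with the block, a share near the 12.4% of all genes. Timp1, an inhibitor of the metalloproteinases, was listed at 0 counts, but all of its exon bases lie within the span of another gene, introns included. Whether this accounts for the 0 was not tested.

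Of 14 other specific granule genes, 13 were tested and 1 passed without the block, where 0.0624% of all genes did, and 8 passed with it, where 12.4% did, all higher with DOX. The median log2 fold change was 1.09. Pglyrp1, a peptidoglycan recognition protein, was the one that passed both. It was at 42.7, 43.9 and 32.1 CPM in untreated clones 1, 2 and 3 and at 93.4, 101 and 94.2 CPM under DOX, with a log2 fold change of 1.30 ± 0.135 (edgeR adjusted p 0.0321, or 0.00675 with the block). In MLL-AF9-ieGFP it ran from 52.4 to 68.9 CPM, and its DOX effect was smaller there by 1.03 ± 0.198 (adjusted p 0.527, or 0.0346 with the block).

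Itgb2, the beta chain of the leukocyte integrins, was at 199, 222 and 171 CPM untreated and at 663, 714 and 264 CPM under DOX (log2 fold change 1.49 ± 0.332, adjusted p 0.103, or 0.0229 with the block). Olfm4, a matrix protein of specific granules, had a log2 fold change of 1.47 ± 0.381 (adjusted p 0.118, or 0.0288 with the block). Stfa1, a stefin, was at 185, 228 and 168 CPM untreated and at 441, 699 and 198 CPM under DOX (adjusted p 0.148, or 0.0387 with the block). Stfa1 has close copies, so its reads could be split among them, and another gene covers 15.8% of the exon bases of Olfm4. In Itgb2, as in Lcn2 and Lyz2, clones 1 and 2 differed by more than clone 3.

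Of 11 genes of gelatinase granules and secretory vesicles, 8 were tested, 0 passed without the block and 1 with it, a share close to the 12.4% of all genes. That gene, Adam8, a membrane protease, was at 2.48, 2.74 and 2.21 CPM in untreated clones 1, 2 and 3 and at 5.66, 8.09 and 2.67 CPM under DOX (log2 fold change 1.16 ± 0.374, adjusted p 0.153, or 0.0429 with the block). Itgam had 6 counts in the 10 libraries, with 99.1% of its exon bases inside another annotated gene, so its level was not read.

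**Figure D4:**
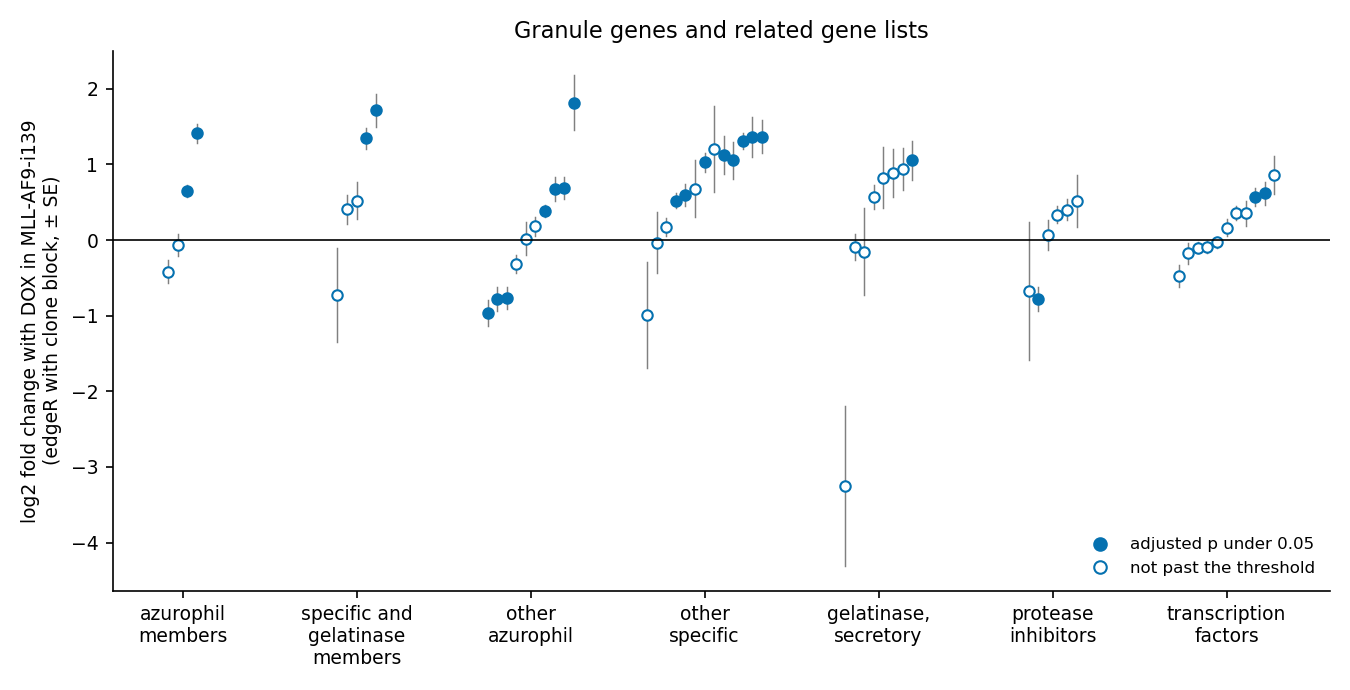
Log2 fold change with DOX in MLL-AF9-i139 for each tested gene of the granule classes and related lists, from edgeR with the clone as a block, with vertical lines for ± SE over 3 clones. Filled points pass an adjusted p under 0.05: they are all above 0 among the other specific granule genes and lie on both sides of 0 among the other azurophil genes.

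Of 12 transcription factors listed for these genes, 11 were tested and 0 passed without the block, where 0.0624% of all genes did. With the block 2 rose, a share near the 12.4% of all genes called in either direction. Cebpe, which encodes C/EBPε, was at 94.8, 111 and 87.7 CPM in untreated clones 1, 2 and 3 and at 166, 175 and 101 CPM under DOX, with a log2 fold change of 0.60 ± 0.202 (adjusted p 0.162, or 0.0347 with the block). Spi1, which encodes PU.1, was at 82.4, 92.8 and 82.3 CPM untreated and at 146, 170 and 89.5 CPM under DOX, with a log2 fold change of 0.67 ± 0.213 (adjusted p 0.15, or 0.0448 with the block). Both differed by little in clone 3. Cebpa and Gfi1, which act earlier in granulocytes, had log2 fold changes of 0.17 ± 0.167 and -0.09 ± 0.144 and passed neither test. Irf8 was listed at 0 counts in all libraries, with all of its exon bases inside another gene, so its level was not read.

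Genes that mark the stage of neutrophils gave 0 calls of 8 tested without the block, where 0.0624% of all genes passed, and 4 rises with it, where 12.4% passed. Csf3r, the receptor of G-CSF, was at 23.8, 29.3 and 36.7 CPM in untreated clones 1, 2 and 3 and at 64.7, 77.5 and 70.6 CPM under DOX (log2 fold change 1.26 ± 0.168, adjusted p 0.0596, or 0.00955 with the block). Cxcr2, a chemokine receptor of mature neutrophils, was at 1.35, 0.889 and 0.913 CPM untreated and at 41.6, 22.8 and 2.67 CPM under DOX (log2 fold change 4.42 ± 0.864, adjusted p 0.0955, or 0.0219 with the block). Cd177, a surface glycoprotein, had a log2 fold change of 0.58 ± 0.181 (adjusted p 0.143, or 0.0441 with the block), and Cebpe is the fourth. Of the other markers of late stages, Ly6g was at 1.00 to 1.68 CPM over the 10 libraries and Retnlg had 18 counts in all. S100a8 and S100a9 were lower in untreated MLL-AF9-i139 (37.6 to 66.6 CPM) than in untreated MLL-AF9-ieGFP (102 to 131 CPM), a difference that did not pass the test (adjusted p 0.565 and 0.463). With DOX in MLL-AF9-i139 the log2 fold change was 0.27 ± 0.276 for S100a8, 0.01 ± 0.277 for S100a9 and 0.27 ± 0.234 for Ly6g. That of Fcnb was -1.01 ± 0.806, on 75 counts in all. None of these passed the test in either fit.

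Markers of other cells moved with DOX in part. The summed CPM of 10 monocyte and macrophage markers was 18.9 to 22.3 in MLL-AF9-i139 without DOX, 19.6 to 36.8 with DOX and 16.4 to 18.8 in MLL-AF9-ieGFP. With the block, where 12.4% of all genes passed, 1 of its 8 tested genes rose and 1 fell: Csf1r had a log2 fold change of 1.36 ± 0.456 (adjusted p 0.162, or 0.0278 with the block) and Ccr2 one of -1.54 ± 0.318 (adjusted p 0.0959, or 0.022). The sum of 8 eosinophil, basophil and mast cell markers was 10.2 to 12.3 CPM without and 15.3 to 17.1 CPM with DOX in MLL-AF9-i139, and 10.2 to 12.7 CPM in MLL-AF9-ieGFP. Of these Mcpt8, a basophil protease whose gene lies close to Ctsg on chromosome 14, rose with the block (log2 fold change 0.70 ± 0.16, adjusted p 0.105, or 0.0236). Erythroid and megakaryocyte markers summed to 3.15 to 4.16 CPM and lymphoid markers to 13.2 to 54.0 CPM over all libraries, with 0 calls, and the globin gene Hbb-bs, the granzyme gene Gzmb and the basophil gene Prss34 were at 0 counts. Of 5 progenitor markers only Cd34 passed, with the block, on 37 counts in all. The part of these cells in the differences of the granule genes was not tested.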

How the data were processed

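RNA of 10 libraries was depleted of ribosomal RNA (KAPA RNA HyperPrep with RiboErase) and sequenced. The authors mapped reads to GRCm38 with STAR 2.5.3e and counted them per gene of GENCODE M15 with featureCounts 1.6.0, and the deposited values are raw counts. Their counting options are not given in the sources used here. Another 14 columns of per-sample values in the deposited table were not used. A further deposited table repeats these counts.

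Groups came from the sample labels. The 10 genes and the related lists were chosen with earlier results of these data known. Genes with at least 10 counts in total were tested with edgeR 4.0.16 (R 4.3.3, TMM, quasi-likelihood, Benjamini-Hochberg), the MLL-AF9-i139 effect on its 6 libraries and the other contrasts in 1 fit of 4 groups on all 10. SE are the log2 fold change over the root of F. Clone numbers pair libraries because they name 1 cell line with and without DOX: deviations from group means correlated by 0.288 to 0.414 within a clone. Between clones they correlated by -0.315 to -0.0436. Deviations cancel within a group, so positive values within clones make negative ones between clones, which add no evidence of their own. The 48 h and 72 h cultures of MLL-AF9-ieGFP are paired by time within 1 clone. Libraries of 1 clone at different times may share their spread. The fit of 4 groups uses 1 estimate of the spread per gene over all 10 libraries. Its p-values for MLL-AF9-ieGFP thus rest on the spread between its cultures and between the MLL-AF9-i139 clones. They do not measure the spread between MLL-AF9-ieGFP clones. Sums of log2 levels used a floor of 0.01 CPM per kb. Exon lengths and overlaps came from GENCODE M21 on GRCm38, later than the release the authors used. Overlaps were taken with the whole span of the other gene, introns included. Alternatives were DESeq2 1.42.0, RLE size factors, other count filters, the clone block, 1 fit of all libraries, each library pair left out and other forms of the granule ratio. Depth was 35133308 to 47089725 counts a library, and counting error alone makes values under about 10 counts imprecise. The code was tested on simulated data.

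From each list were named the genes past the threshold in either fit, at most 4 by size of change, with Cebpa, Cebpe, Gfi1 and Spi1 always named, and the 5 genes most like each class. Kit, Hbb-bs, Gzmb, Prss34, Irf8, Itgam, Timp1, Ly6g, Retnlg, Fcnb, S100a8 and S100a9 are named after their values were seen. A comparison of protein sequences was planned and was not run here.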

Additional observations from a re-analysis of the deposited data

Results flagged for a closer look

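Lcn2 was higher with DOX in all 3 MLL-AF9-i139 clones and lower in both MLL-AF9-ieGFP cultures, where the log2 fold change of -0.12 ± 0.382 was inside its error and did not pass the test. The difference between the DOX effects was 1.92 ± 0.497 on the log2 scale. In edgeR its adjusted p was 0.527 without the block and 0.0436 with it, and DESeq2 gave 0.0249. Without clone 3 it was 2.18 with an adjusted p of 0.000454, and leaving out any other library gave values of 1.77 to 1.99 that did not pass the test.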

How the results depend on the processing

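The direction and the side of the threshold were kept in 340 of 394 granule gene values under the alternatives, 36 moved past the threshold and 18 changed sign. The fits reported, as named in this section, are those without the block, in which no granule gene was called, so no call could be lost. Of the calls with the block in MLL-AF9-i139, that of Ctsg was lost without clone 1 (edgeR adjusted p 0.0564). The signs that changed were of values inside their error in the fit reported. The number of genes called for DOX in MLL-AF9-i139, 12 in the fit reported, was 2381 with the replicate block, 1556 by DESeq2, 1234 in 1 fit of all libraries, 562 without a filter beyond 1 count and 6 with at least 10 counts in 3 libraries. It ranged from 0 (without clone 2) to 3981 (without clone 3) when a clone was left out, and with the block, added after seeing the data, it was 324, 580 and 7974 without clones 1, 2 and 3. The block changed the call of Mpo, Ctsg, Ngp and Lcn2 in MLL-AF9-i139 and of Lcn2 for the difference between constructs, and of no other granule gene, and Elane turned to -0.0611 with it and to -0.297 with it without clone 3, where it passed the threshold. For DOX in MLL-AF9-ieGFP, DESeq2 and the open filter each called 1 gene, against 0. The difference between constructs, 1 gene in the fit reported, gave 38 with the replicate block, 82 by DESeq2, 71 with the open filter and 0 with the stricter one, and 0 to 2011 with a library pair left out (2011 without clone 3). Between untreated lines, 9 genes became 45 by DESeq2 and 37 with the open filter, and 0 to 30 with a library pair left out. The cause of these changes was not tested.

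With a library pair left out, the log2 fold change with DOX ran from -0.303 to 0.218 for Elane in MLL-AF9-i139, and in MLL-AF9-ieGFP from -0.0602 to 0.199 for Camp and from -1.03 to 0.769 for Mmp9. The difference between constructs ran from -2.26 to 0.209 for Mmp9. Between untreated lines the ranges were -0.294 to 0.0442 for Mpo, -0.126 to 0.445 for Elane, -0.18 to 0.102 for Prtn3, -0.0984 to 0.304 for Ctsg, -0.533 to 0.154 for Camp and -0.98 to 0.323 for Mmp9. A fit without 1 MLL-AF9-ieGFP culture time leaves 1 library in each of its groups, which is assumed to vary like the other groups. The log2 ratio of azurophil to later genes differed with DOX by -0.931, and by -0.134 as a mean of log2 levels. Over the 6 MLL-AF9-i139 libraries alone, 0 of the 5 genes most like the azurophil genes and 0 of the 5 most like the later genes were the same. Among the granule genes, depth limits Mmp8 and Mmp9 most.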
